A study of Caenorhabditis elegans with 9 samples.

Results

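The comparison described here sets a Caenorhabditis elegans line that carries His-tagged SUMO-1 under the myo-4 promoter against a line that carries the same protein under the aex-3 promoter. It uses 6 of the 9 expression arrays of the study, chosen by their titles alone: 3 arrays of strain JS63 (myo-4::his-SUMO-1, called myo-4 SUMO below) and 3 arrays of strain JS62 (aex-3::his-SUMO-1, called aex-3 SUMO). The other 3 arrays hold the non-transgenic wild type N2, and their levels are given beside those of the lines without entering the fit. N2 was left out of the fit so that its wider spread would not enter. All groups were labelled as whole-body larvae of the first stage (L1), obtained by bleaching and fed OP50 bacteria, and the series' design text describes 3 biological replicate populations of each group. Each line stands for its promoter through 1 strain only, so a difference between the promoters and a difference between these strains cannot be told apart.

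SUMO is a small protein that is joined to lysines of other proteins by an activating enzyme, a conjugating enzyme and ligases, and is removed again by SUMO proteases. Many of its targets are chromatin and transcription proteins, and in C. elegans the single SUMO gene smo-1 is needed for embryonic development. aex-3 encodes a regulator of synaptic vesicle traffic whose promoter is widely used for expression in neurons, and myo-4 is another name of unc-54, the gene of the main myosin heavy chain in body wall muscle. In RNA from whole animals, fewer cells of a type and less RNA per cell cannot be told apart.

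Across the 22548 probe sets that are not array controls, 100 passed the test between the lines (0.443% of those tested). limma, with Benjamini-Hochberg adjustment over all of them and a threshold of 0.05, found 61 of these higher in myo-4 SUMO (0.271%) and 39 lower (0.173%). Values are array signals on a linear scale, and fold changes are log2 differences of signal plus a pseudocount of 1.569, myo-4 SUMO minus aex-3 SUMO, with the standard error of the fit. On all 100 called probe sets the 3 arrays of one line lay wholly on one side of the 3 arrays of the other, which was so for 17.2% of all probe sets, 10.8% with myo-4 SUMO higher and 6.42% with it lower. Changes were modest for most: the median was 0.83 among those that rose and -0.77 among those that fell, and a rise or fall of at least 2-fold was reached by 26 (0.115%) and 11 (0.0488%). The median fold change of all probe sets was 0.034.

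The number of calls depended on single arrays and on the settings of the fit, and their split by direction depended on scaling. There were 21 calls without the intensity trend of the fit and 23 with all 9 arrays in it. A pseudocount of 16 gave 63 calls, and no pseudocount gave 26. Scaling moved the number less, to 78 after quantile normalization and 110 after median centring. The sign of every called probe set held under each of the 16 alternatives that tested it. Only quantile normalization and median centring could have turned it, since the arrays of the lines did not overlap on these probe sets. Filters on dim probe sets tested 94 and 84 of the 100. Leaving out 1 array gave 27 calls without aex-3 SUMO replicate 1, 47 without replicate 2 and 42 without replicate 3. It gave 74 without myo-4 SUMO replicate 1, 17 without replicate 2 and 50 without replicate 3. Of the 100 calls, 16 held whichever array was left out and 32 held in none of these fits. Centring each array on its median turned the split of 61 higher and 39 lower into 43 higher and 67 lower. Testing only the 13694 bright probe sets, those whose signal passed the 40th percentile on 3 or more of the 6 arrays, gave 245 calls (1.79%), of which 145 were higher (1.06%) and 100 lower (0.73%).

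**Figure D1:**
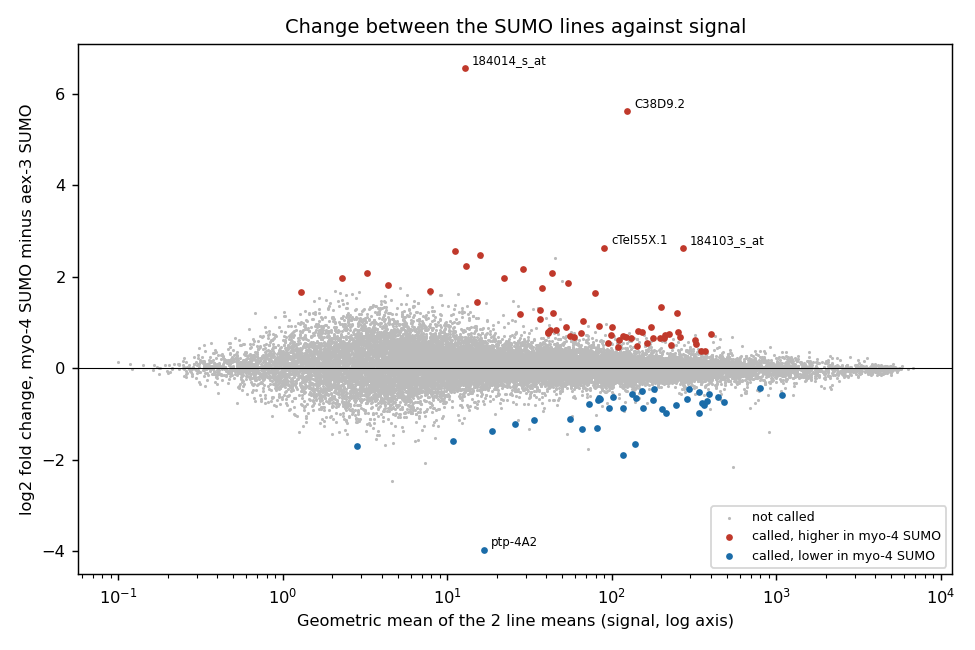
Each point is 1 probe set; the horizontal axis is the geometric mean of the mean signals of both lines (log axis) and the vertical axis is the log2 fold change, myo-4 SUMO minus aex-3 SUMO. Red points are the 61 called higher and blue points the 39 called lower; 184014_s_at and C38D9.2 lie far above all other points and ptp-4A2 lies below them.

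The lines separated along the first principal component of the 6 arrays, with 40.8% of the variance. Replicate arrays correlated across probe sets, which are not independent, at 0.9865 to 0.9891 within myo-4 SUMO and 0.9876 to 0.9894 within aex-3 SUMO, against 0.9785 to 0.9862 between the lines. The 3' over 5' signal of control transcripts, a sign of RNA integrity, was on the log2 scale 0.278 ± 0.0125 in aex-3 SUMO and 0.302 ± 0.0937 in myo-4 SUMO (mean over 5 transcripts, SD, n = 3), with a two-sided exact permutation p of 0.7 where 0.1 is the smallest possible. The median over the same transcripts was 0.138 ± 0.198 and 0.331 ± 0.201, a difference of 0.192 with an exact permutation p of 0.2. Marker genes did not match first-stage larvae alone. The yolk gene vit-6, expressed in adult intestine, ranked at percentiles 99.8 to 99.9 of each of the 6 arrays, the oocyte gene oma-2 at 96.6 to 96.9 and the major sperm protein gene msp-3 at 99.0 to 99.2. The neuronal gene rab-3 ranked at 63.1 to 71.1 and the muscle gene unc-15 (paramyosin) at 98.0 to 98.4, so both tissues were represented.

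The genes of the SUMO pathway did not pass the test between the lines. The smo-1 probe set read 957, 1078 and 1018 in aex-3 SUMO, 1055, 927 and 887 in myo-4 SUMO, and 715, 687 and 512 in N2. The lines overlapped, and all 6 of their arrays lay above the 3 N2 arrays. This position was not particular to smo-1: the summed signal of the measured SUMO pathway genes, smo-1 included, was 2009 to 2219 in myo-4 SUMO, 1253 to 1599 in N2 and 2126 to 2160.4 in aex-3 SUMO. That of proteasome genes was 24404 to 25110.0, 16901 to 20239 and 24192 to 26004 in the same order. The difference in smo-1 between the lines was -0.09 ± 0.09 (adjusted p = 0.721). Whether this probe set detects transcripts of the transgenes is not known, because neither the constructs nor the probe sequences were used here.

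None of the 7 bright SUMO pathway genes was called, and the median of their fold changes was -0.02, beside 0.01 over all bright genes. aos-1, a subunit of the activating enzyme, read 388 ± 13.6 in aex-3 SUMO and 369 ± 41.0 in myo-4 SUMO (mean ± SD, n = 3). For gei-17, a SUMO ligase, the brightest probe set read 207 ± 3.12 and 218 ± 25.7. The arrays of the lines separated for ulp-2, a SUMO protease, alone: it read 89.8, 91.4 and 101 in aex-3 SUMO against 108, 105 and 129 in myo-4 SUMO, a difference of 0.27 ± 0.10 (adjusted p = 0.341). A second ulp-2 probe set overlapped between the lines. Among the other SUMO proteases, ulp-1 had a fold change of -0.25 ± 0.19, ulp-4 of 0.02 ± 0.10 and ulp-5 of -0.02 ± 0.09.

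The genes whose promoters drove the transgenes were not called either. aex-3 was dim, at 14.4, 14.7 and 12.9 in aex-3 SUMO and 11.2, 16 and 16.7 in myo-4 SUMO, and the sign of its difference (0.04 ± 0.23) turned under both other scalings. unc-54 read 1071, 988 and 1122 in aex-3 SUMO and 628, 842 and 909.7 in myo-4 SUMO. All 3 myo-4 SUMO arrays were below all 3 aex-3 SUMO arrays, and both lines were below N2, at 1741 ± 409. The difference of -0.43 ± 0.13 did not pass (adjusted p = 0.229). Of the common transformation markers, rol-6, a cuticle collagen gene, read 115, 152 and 117 against 165, 229.9 and 213 (0.65 ± 0.14, adjusted p = 0.106), without overlap. unc-119 read 37.2 ± 2.61 against 27.1 ± 3.76 (adjusted p = 0.314). The labels do not say which marker, if any, the strains carry.

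**Figure D2:**
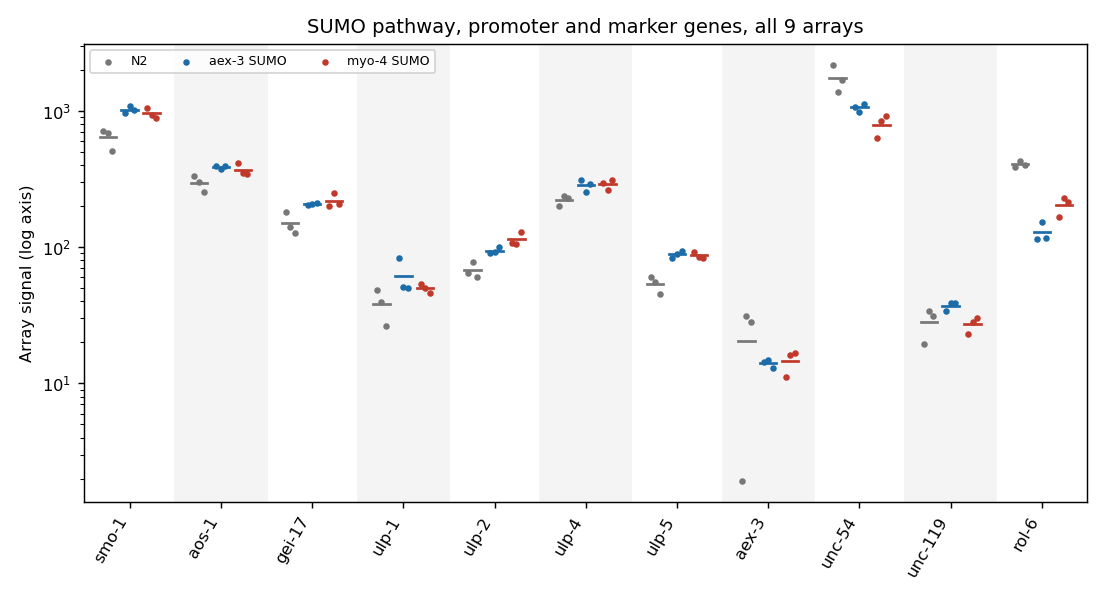
Array signal (log axis) of the SUMO pathway, of both promoter genes and of the markers unc-119 and rol-6, with 1 point per array and a bar at the mean of each group of 3. For smo-1 the lines overlap and both lie above N2; for unc-54 and rol-6 both lines lie below N2 and do not overlap each other.

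A few probe sets were far brighter in one line. C38D9.2, a gene on chromosome V with no further name, read 19.2, 18.5 and 13.6 in aex-3 SUMO and 869.7, 932 and 917 in myo-4 SUMO. N2, at 18.7, 23.3 and 16.6, overlapped aex-3 SUMO, so the myo-4 SUMO arrays alone were high. The fold change was 5.62 ± 0.12 (adjusted p = 5.14e-08), a ratio of mean signals of 53.0. The alternatives moved the fold change from 4.80 to 5.75, and the aex-3 SUMO values lay below the medians of their arrays, 23.19 to 24.56. Probe set 184014_s_at, which matches 2 genes and is therefore not named, read 0.920, 0.794 and 0.528 in aex-3 SUMO and 199.5, 216 and 237 in myo-4 SUMO (6.56 ± 0.18, adjusted p = 1.77e-07). Its N2 arrays, at 0.681 to 2.39, were as low as those of aex-3 SUMO, so the size of this change depends on the pseudocount.

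Probe set 184103_s_at, also shared by 2 genes, separated all 3 groups. It read 104, 109 and 110.2 in aex-3 SUMO, 639, 679 and 707 in myo-4 SUMO (2.63 ± 0.07, adjusted p = 1.74e-07) and 9.47 to 24.6 in N2. Both lines were above N2, and myo-4 SUMO was the higher of them. The 3 probe sets of this and the preceding paragraph kept their call under all 16 alternatives.

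cTel55X.1, the last measured gene of the X chromosome in the gene order of assembly WBcel235, was low in aex-3 SUMO. Its brighter probe set read 33.2, 39.6 and 33.6 in aex-3 SUMO, 210.2, 238 and 239 in myo-4 SUMO and 346, 314 and 335 in N2. The groups did not overlap, with myo-4 SUMO between the other line and N2. The difference between the lines was 2.64 ± 0.10 (adjusted p = 3.08e-06). The second probe set moved the same way, from 44.2 ± 8.47 to 140.1 ± 21.2 (1.64 ± 0.16, adjusted p = 0.00355).

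3 further genes rose in myo-4 SUMO under all 16 alternatives. K02B12.6 read 12.6, 14 and 12 in aex-3 SUMO and 60.1, 79.8 and 52.3 in myo-4 SUMO (2.16 ± 0.18, adjusted p = 0.00146). Y41C4A.32 read 18.4, 21.3 and 21.1 against 99.7, 91.6 and 83.1 (2.09 ± 0.13, adjusted p = 0.000169). In both, N2 overlapped aex-3 SUMO and myo-4 SUMO alone was high. R01E6.5 differed from N2 in opposite directions: it read 23.2, 19.5 and 17.8 in aex-3 SUMO, 35.8 to 38 in N2, and 70.1, 79.3 and 64.5 in myo-4 SUMO (1.75 ± 0.15, adjusted p = 0.00146).

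Among called probe sets, the lowest fold changes in myo-4 SUMO were those of ptp-4A2 and rips-1. ptp-4A2, named as a PTP4A-type tyrosine phosphatase gene, read 87.2, 72.4 and 67.7 in aex-3 SUMO, 6.58, 2.12 and 2.35 in myo-4 SUMO and 85.3 to 138 in N2. The myo-4 SUMO arrays were near the floor while the other line reached into the lower part of the N2 range. The fold change was -3.97 ± 0.31 (adjusted p = 0.000911), and the call was lost only where no pseudocount was used. rips-1 ran the other way: it read 229.6, 218 and 233 in aex-3 SUMO, 51.5, 56.4 and 74.9 in myo-4 SUMO and 40.6 to 67.5 in N2. Here the aex-3 SUMO arrays stood apart and myo-4 SUMO overlapped N2 (-1.89 ± 0.13, adjusted p = 0.00035, held under all 16 alternatives).

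No gene next to those with the largest changes was called. None of the 6 nearest measured neighbours of C38D9.2 was called, with fold changes from -0.65 to 0.53, and the same held for K02B12.6 (-0.51 to 0.08), Y41C4A.32 (-0.16 to 0.26) and ptp-4A2 (-0.08 to 0.28). cTel55X.1, at the chromosome's end, has 3 such neighbours, from -0.06 to 0.31. Near citk-1, described next, the range was -0.17 to 1.02. Its highest value was that of mltn-3, chosen after its values were seen, which read 16.2, 14.6 and 10.9 in aex-3 SUMO and 35.8, 21.9 and 32.4 in myo-4 SUMO, without overlap (1.02 ± 0.24, adjusted p = 0.128). The ranges near ram-5 (-0.53 to 0.14) and ztf-13 (-0.15 to 0.47) held no call either.

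The other 12 highest and 12 lowest single-gene changes rested on fewer settings. tbb-6, a beta tubulin gene, rose from 27.8 ± 4.20 to 106 ± 22.1 (1.86 ± 0.17, adjusted p = 0.00253), and kept its call under 14 of 16 alternatives. Dim genes at means of 4.28 to 11 in aex-3 SUMO rose with adjusted p-values of 0.0274 to 0.0437: ram-5 (2.58 ± 0.43), citk-1 (2.48 ± 0.41), ztf-13, a zinc finger gene (2.25 ± 0.32), and lys-10, a lysozyme gene (1.97 ± 0.32). mtre-1 rose from 8.74 ± 0.938 to 26.5 ± 2.03 (1.45 ± 0.20). On the lower side, dod-3, a gene downstream of the FOXO factor DAF-16, read 311, 273 and 158 in aex-3 SUMO and 69.4, 58.1 and 101 in myo-4 SUMO (-1.66 ± 0.26, adjusted p = 0.0378). Both lines were far below N2, at 1408 ± 544. ZC504.1 fell from 20.6 ± 4.56 to 5.70 ± 0.361, and F15E6.4 from 83.5 ± 21.1 to 37.1 ± 2.14. sup-36 fell from 158 ± 6.36 to 86.0 ± 12.8 and was below N2 (221 ± 14.1) in both lines.

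**Figure D3:**
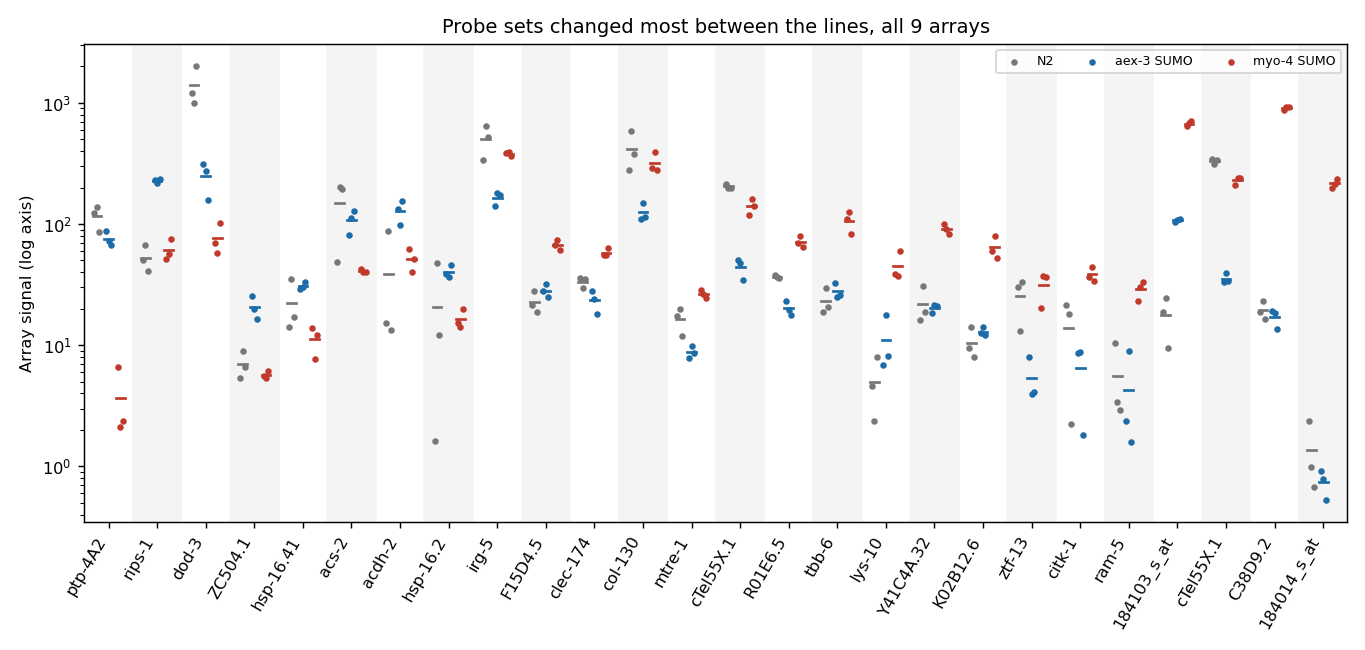
Array signal (log axis) on all 9 arrays for the probe sets with the largest changes, ordered from the lowest to the highest fold change, with 1 point per array and a bar at each mean of 3. C38D9.2 and 184014_s_at are high in myo-4 SUMO alone, ptp-4A2 is low in myo-4 SUMO alone, rips-1 is high in aex-3 SUMO alone, and both probe sets of cTel55X.1 are lowest in aex-3 SUMO.

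Gene groups were read with 1 probe set per gene, which gave 17118 genes, of which 51 were called higher in myo-4 SUMO (0.298%) and 28 lower (0.164%). Over the 10376 bright genes, the arrays of the lines did not overlap with myo-4 SUMO higher in 12.5% and lower in 8.52%. Their median fold change was 0.01, or -0.01 after quantile normalization and -0.06 after median centring. These shares and medians are the background for each group below.

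Cuticle collagen genes, which build the exoskeleton, rose in myo-4 SUMO where they were called: 7 of 148 measured genes rose and none fell. Of the 114 bright ones, 35 lay wholly above aex-3 SUMO and none lay wholly below it. The median fold change of the bright ones was 0.18, and 0.16 and 0.11 under the other scalings. The highest call was col-130, at 111, 149 and 114 in aex-3 SUMO and 289.7, 395 and 277 in myo-4 SUMO (1.35 ± 0.15, adjusted p = 0.00821). All 3 myo-4 SUMO arrays were above the other line, and they overlapped N2. col-90 rose from 72.4 ± 7.02 to 138 ± 26.0 (0.90 ± 0.14), col-113 from 108 ± 13.2 to 192 ± 18.6 (0.82 ± 0.11) and col-14 from 173 ± 23.7 to 289.7 ± 31.4 (0.74 ± 0.11).

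Among the 5 bright collagens of the annular furrows, dpy-8 was called. It read 40.4, 43.8 and 46.6 in aex-3 SUMO, 66.9, 73.4 and 75.8 in myo-4 SUMO and 98.6 to 113 in N2 (0.71 ± 0.11, adjusted p = 0.0378). The 3 groups were ordered without overlap. The dpy-8 call was lost on leaving out any 1 array and under both other scalings. The median of these 5 genes was 0.62, and 4 of them lay wholly above aex-3 SUMO. Of the 7 called collagens, aex-3 SUMO lay wholly below N2 for 6 and myo-4 SUMO for 3. Collagens that were not called were not counted this way. The median signal of the bright collagens was higher in N2 (324 to 469) than in myo-4 SUMO (219 to 280) or aex-3 SUMO (167 to 205). A position below N2 was therefore not shown to be particular to the called collagens. With 1 array left out, the collagen calls numbered 1 (aex-3 SUMO replicate 1), 4 (replicate 2), 2 (replicate 3), 6 (myo-4 SUMO replicate 1), 1 (replicate 2) and 2 (replicate 3). When bright probe sets alone were tested they numbered 14.

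Genes of moulting and of the apical extracellular matrix, which lines the outer surface of epithelia, lay mostly on the same side. Of 78 bright genes, 30 lay wholly above aex-3 SUMO and 2 wholly below, with a median of 0.27 (0.20 under each other scaling). lpr-4 and lpr-5, neighbouring lipocalin-related genes of this matrix, were the 2 called. lpr-5 read 31.7, 34 and 27.6 in aex-3 SUMO and 49.6, 61.5 and 58.8 in myo-4 SUMO (0.83 ± 0.14, adjusted p = 0.0451), and lpr-4 rose from 60.4 ± 5.65 to 117 ± 23.2 (0.92 ± 0.15, adjusted p = 0.0427). In both genes all aex-3 SUMO arrays were below N2. lpr-3, of the same family and chosen after its values were seen, was called on its dimmer probe set (0.73 ± 0.12, adjusted p = 0.0482). Its brighter one, which the list counts, missed the threshold (0.59 ± 0.10, adjusted p = 0.0578). The lpr-5 call was lost on leaving out any 1 array, and that of lpr-4 on leaving out any except myo-4 SUMO replicate 1. Hedgehog-related genes, secreted ligand-like proteins and patched-related receptors used in the worm's epidermis, had no call. Of 48 bright ones, 15 lay wholly above aex-3 SUMO and 1 below, with medians of 0.32 for the 25 ligand-like genes and 0.17 for the 23 patched-related genes. The highest of the bright ones, grd-14, read 420.2 ± 69.0 against 678 ± 93.3 (0.69 ± 0.13, adjusted p = 0.0666).

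Summed over all measured genes of a list, the moulting and matrix signal was 6645 to 7282 in myo-4 SUMO, 7436 to 8443 in N2 and 5785 to 6029 in aex-3 SUMO. The summed hedgehog-related signal was 6080 to 6789, 7539 to 8490.3 and 5159 to 5430.2 in the same order. In both lists the 3 groups did not overlap and aex-3 SUMO was lowest. The summed collagen signal overlapped between the lines, at 113140.0 to 141480.0 in myo-4 SUMO and 115890.0 to 127040.0 in aex-3 SUMO. The part of developmental timing in these differences was not tested.

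**Figure D4:**
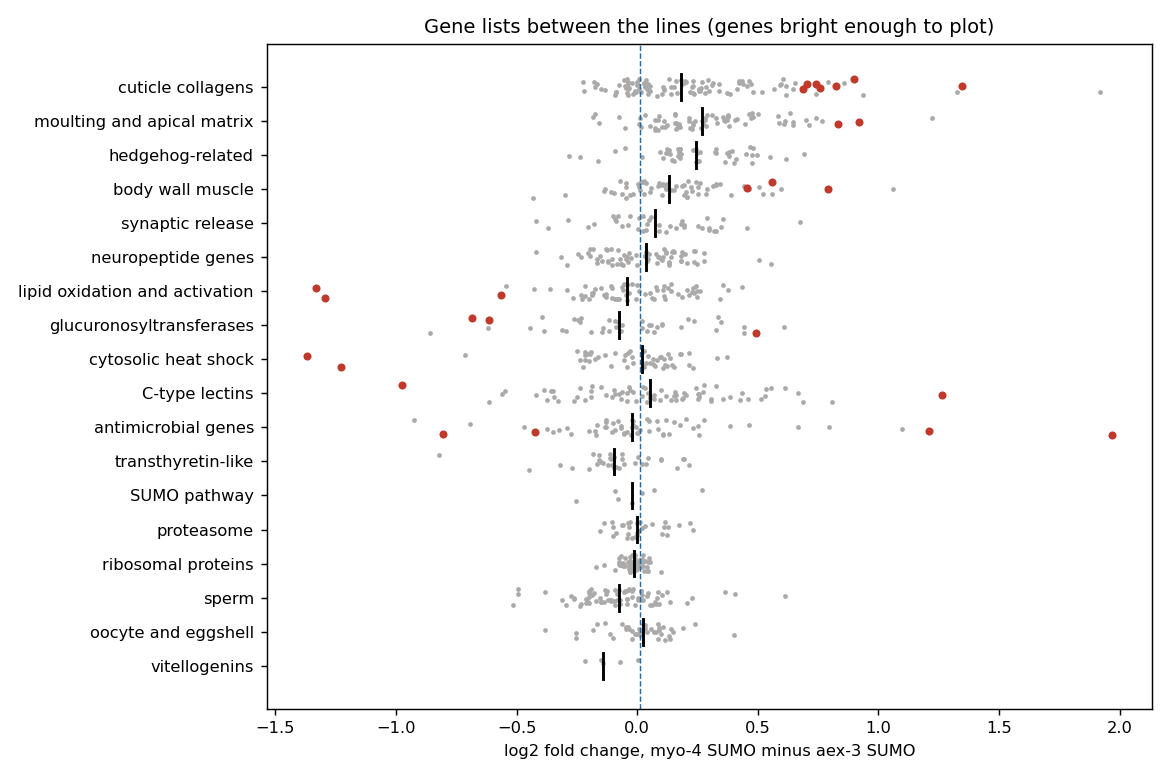
Each point is a bright gene of a list, placed by its log2 fold change, myo-4 SUMO minus aex-3 SUMO; red points are called, black bars are list medians and the dashed line is the median of all bright genes (0.01). Collagen, moulting and hedgehog-related genes lie mostly to the right of that line, while ribosomal and proteasome genes centre on it.

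Body wall muscle genes, the tissue of the myo-4 promoter, had 3 calls among 71 measured genes, all higher in myo-4 SUMO. Each of these 3 calls was lost under quantile normalization and under median centring. The median of the 66 bright ones was 0.13 (0.14 and 0.06 under the other scalings), with 18 wholly above aex-3 SUMO and 4 wholly below. myo-3, a myosin heavy chain of the thick filament, read 92.6, 91.5 and 93.6 in aex-3 SUMO and 129, 133 and 121 in myo-4 SUMO (0.46 ± 0.08, adjusted p = 0.0482). It lay below N2, at 162 ± 21.3, in both lines, in contrast to unc-22 (twitchin), which lay above N2 in both. unc-22 read 30.8 ± 3.48 in aex-3 SUMO, 54.2 ± 3.15 in myo-4 SUMO (0.79 ± 0.13, adjusted p = 0.0451) and 16.3 ± 3.36 in N2. pat-2, the alpha integrin of muscle attachments, rose from 77.3 ± 1.86 to 115 ± 8.93 (0.56 ± 0.09, adjusted p = 0.041). Second probe sets of unc-22 (0.74 ± 0.24) and pat-2 (0.21 ± 0.14) were not called.

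By role, the 13 bright thick filament genes had a median of 0.19 and the 20 attachment genes 0.23. The 26 genes of the thin filament and of calcium handling had 0.07, which was -0.01 after median centring. unc-54, above, had the opposite sign to the median of its group. Muscle calls numbered 0 without any 1 of the aex-3 SUMO arrays or without myo-4 SUMO replicate 2, and 2 and 1 without myo-4 SUMO replicates 1 and 3. The summed signal of the muscle list overlapped between the lines, at 38528 to 44602 in myo-4 SUMO against 39650.0 to 41895 in the other line.

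The lists of neuronal genes, the tissue of the aex-3 promoter, had no call on the brightest probe set of each gene. Called genes outside these lists were not sorted by whether neurons express them. For unc-11, a clathrin adaptor gene of synaptic vesicles chosen after its values were seen, 1 dim probe set rose from 3.85 ± 1.14 to 15.9 ± 3.09 (1.70 ± 0.29, adjusted p = 0.0465), while its brightest read 66.6 ± 3.29 and 70.0 ± 16.6 (0.05 ± 0.16). Of 40 bright genes of synaptic release, 7 lay wholly above aex-3 SUMO and none below, and their median of 0.07 was 0.03 and -0.00 under the other scalings. Of 73 bright neuropeptide genes, 3 lay wholly above and 1 below. The latter was flp-12, a peptide gene that read 57.3 ± 1.77 in aex-3 SUMO and 42.7 ± 7.07 in myo-4 SUMO (-0.42 ± 0.13, adjusted p = 0.262). The median of the neuropeptide genes was 0.04, and -0.03 and -0.04 under the other scalings, so it had no settled sign. Of 66 bright neurotransmitter genes, 3 lay wholly above and 4 below, with a median of 0.05 (0.01 and -0.02 under the other scalings). Of 31 bright genes of neuronal fate, 6 lay wholly above and 1 below. Their median of 0.11 stayed positive under the other scalings, at 0.08 and 0.04. zig-6, an immunoglobulin-domain gene outside these lists, rose from 96.4 ± 12.8 to 155 ± 13.2 (0.68 ± 0.11, adjusted p = 0.0437).

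Genes of fatty acid activation and oxidation were lower in myo-4 SUMO where called, 3 of 68 bright genes, with none higher. acs-2, an acyl-CoA synthetase, read 81.3, 111 and 129 in aex-3 SUMO, 42.2, 40.6 and 39.9 in myo-4 SUMO and 48.4 to 202 in N2. All myo-4 SUMO arrays were below both other groups (-1.33 ± 0.16, adjusted p = 0.0106), and a second probe set fell by 1.12 on the log2 scale. acs-1, another acyl-CoA synthetase, stood higher in aex-3 SUMO than in myo-4 SUMO on both its probe sets. The brighter, which the list counts, read 476 ± 25.5 and 323 ± 35.4 (-0.56 ± 0.09, adjusted p = 0.0427), with N2 at 228 ± 113. The dimmer read 360.2 ± 4.85 and 227 ± 30.9 (-0.67 ± 0.09, adjusted p = 0.0261), with N2 at 163 ± 80.9. acdh-2, an acyl-CoA dehydrogenase, fell from 128 ± 28.3 to 51.1 ± 10.7 (-1.29 ± 0.19, adjusted p = 0.0278), and its second probe set just missed the threshold (adjusted p = 0.0595). The list's median was -0.04, so the calls do not describe the whole list. The list had 0 calls without myo-4 SUMO replicate 2, 2 without replicate 1, and 1 without any other array.

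Small heat shock genes fell as a neighbouring pair. hsp-16.2 read 39.0, 36.2 and 45.5 in aex-3 SUMO and 15.2, 14 and 20 in myo-4 SUMO (-1.23 ± 0.19, adjusted p = 0.0345), and hsp-16.41 fell from 30.8 ± 2.11 to 11.2 ± 3.24 (-1.37 ± 0.23, adjusted p = 0.0482). The hsp-16.41 call was lost on leaving out any 1 array, and that of hsp-16.2 on leaving out any except myo-4 SUMO replicate 3. The N2 arrays were scattered around both genes, at 1.61 to 47.6 for hsp-16.2. These were the only calls among 53 bright cytosolic heat shock genes, whose median was 0.02. Another stress gene, msra-1, a methionine sulfoxide reductase chosen after its values were seen, fell from 617 ± 72.6 to 373 ± 53.4 (-0.73 ± 0.12, adjusted p = 0.0427).

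Antimicrobial and lectin genes changed in both directions. Among 59 bright antimicrobial genes 2 rose and 2 fell. irg-5, an infection response gene, read 141, 179 and 173 in aex-3 SUMO, 385, 389.9 and 366 in myo-4 SUMO and 336 to 646 in N2 (1.21 ± 0.09, adjusted p = 0.000911). The aex-3 SUMO arrays were the low ones, and myo-4 SUMO overlapped N2. The call was lost only without the intensity trend. lys-10, above, also rose, while the lysozyme gene lys-7 fell from 326 ± 35.5 to 186 ± 20.3 (-0.80 ± 0.10, adjusted p = 0.015) and asp-13, an aspartyl protease gene, from 916 ± 27.7 to 683 ± 28.2 (-0.42 ± 0.07, adjusted p = 0.0407).

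Of 77 bright C-type lectin genes 1 rose and 1 fell. clec-48 read 297, 316 and 288 in aex-3 SUMO and 143, 138 and 178 in myo-4 SUMO (-0.97 ± 0.10, adjusted p = 0.00507), both below N2 (454 ± 85.2). clec-174 rose from 23.5 ± 4.98 to 57.9 ± 4.35 (1.26 ± 0.17, adjusted p = 0.0211). Among the UDP-glucuronosyltransferases, which conjugate small molecules, ugt-62 fell from 548 ± 39.7 to 358 ± 43.7 and ugt-64 from 105 ± 10.0 to 64.2 ± 1.95. ugt-29 rose from 118, 112 and 128 to 177, 157 and 170.2 (0.49 ± 0.08, adjusted p = 0.0476). The ugt-29 call was lost on leaving out any 1 array and under both other scalings. Those of ugt-62 and ugt-64 each held in 1 of the 6 fits that left out 1 array. The median of the 42 bright members was -0.08.

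Other groups had few calls or none. The linker histone gene hil-2 rose from 191 ± 12.5 to 332 ± 25.5 (0.79 ± 0.08, adjusted p = 0.00507), and the acid alpha-glucosidase gene aagr-1 from 191 ± 3.36 to 271 ± 15 (0.50 ± 0.07, adjusted p = 0.0241). The hil-2 call held whichever array was left out, and the aagr-1 call was lost on leaving out any 1 array. aqp-8, an aquaporin gene, rose from 259 ± 9.34 to 398 ± 44.4 (0.61 ± 0.09, adjusted p = 0.0265). The F-box genes fbxc-58 and the dim fbxb-37 rose, and both calls were lost on leaving out any 1 array. The fbxc-58 call was also lost under both other scalings. The 40 bright genes with MATH or BTB domains had no call and a median of -0.19, with 8 wholly below aex-3 SUMO and 2 above. The 62 bright ribosomal protein genes had no call and a median of -0.01, and the 31 bright proteasome genes had none and a median of -0.00.

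Adult and germline lists, which check the stage, had no call. Of 77 bright sperm genes 19 lay wholly below aex-3 SUMO and 2 above, with a median of -0.07 (-0.06 and -0.15 under the other scalings). Among them ssp-37 read 218 ± 34.6 and 153 ± 8.93 (-0.49 ± 0.12, adjusted p = 0.129). The summed sperm signal overlapped, at 85145 to 106120.0 in myo-4 SUMO against 96397 to 106660.0 in the other line. For oocyte and eggshell genes the sums were, in the same order, 27954 to 30428 and 28113 to 30118, and for the 5 yolk genes 16067 to 19817 and 18098 to 19810.0. N2 was lower in both lists, at 14107 to 22303 and 11797 to 15272, and overlapped the lines for sperm genes, at 100930.0 to 142370.0. No gene of these 3 lists was at 0 on any array.

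By chromosome, the genes higher in myo-4 SUMO were 16 of 2672 measured on IV (0.599%) and 12 of 2360 on X (0.508%). Each of the other chromosomes had 4 to 7 (0.139% to 0.242%), beside 0.298% of all genes. When bright probe sets alone were tested, the shares were 1.801% on IV, 1.861% on X and 1.313% on V. They were 0.655% to 0.777% elsewhere. The share of bright genes with myo-4 SUMO wholly above aex-3 SUMO differed less, at 11.001% to 14.102% by chromosome. The genes lower in myo-4 SUMO were 12 of 4321 on V (0.278%) and 6 of 3025 on II (0.198%), against 1 to 4 elsewhere (0.0404% to 0.177%). The longest runs of called neighbours held 2 genes each. They were lpr-5 and lpr-4, hsp-16.2 and hsp-16.41, and C34H4.2 with C34H4.1, which read 115 ± 7.14 against 201 ± 16 (0.80 ± 0.09) for the first and 37.9 ± 2.19 against 72.2 ± 4.03 (0.90 ± 0.11) for the second. K12C11.1, chosen after its values were seen because it is the gene next to smo-1 in chromosome order, rose on 1 probe set, from 156, 159 and 151 to 223, 267 and 255 (0.67 ± 0.08, adjusted p = 0.0132). Its second probe set did not, at 212 ± 14.8 and 210.1 ± 12.9 (-0.01 ± 0.08).

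**Figure D5:**
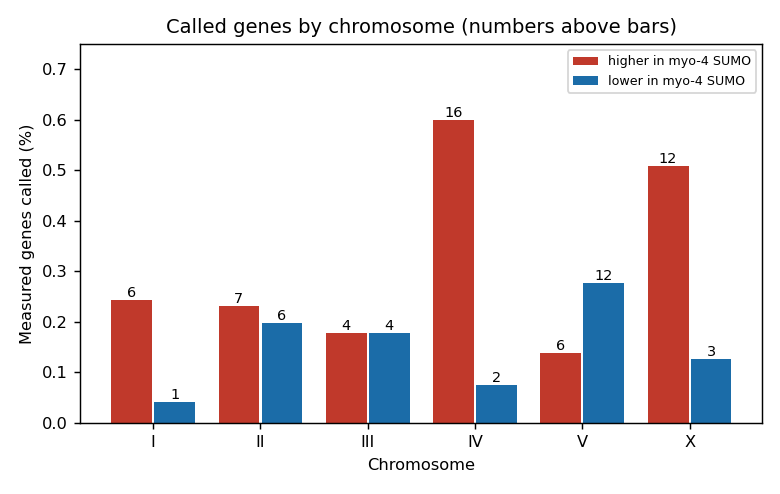
Share of measured genes called on each chromosome, in percent, with the number of genes above each bar; red bars are genes higher in myo-4 SUMO and blue bars genes lower. Chromosomes IV and X have the highest shares of higher genes (16 and 12 genes), and V the highest share of lower ones (12 genes).

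Set beside N2, the called probe sets fell into several patterns. Of the 61 higher in myo-4 SUMO, 20 had myo-4 SUMO wholly above N2 and aex-3 SUMO overlapping it, as in tbb-6. A further 13 had aex-3 SUMO wholly below N2 and myo-4 SUMO overlapping it, as in irg-5, and for 13 both lines were above N2 and for 9 both were below. Of the 39 lower in myo-4 SUMO, 15 had aex-3 SUMO wholly above N2 and myo-4 SUMO overlapping it, as in rips-1. For 8 both lines were below N2, as in clec-48, and for 5 both were above. The lines lay on opposite sides of N2 for 7 of the 100 called probe sets. This was so for 22 of the 3889 probe sets on which the lines did not overlap, whether called or not. The other patterns were not counted over all probe sets, so none of them can be called particular to the called ones. These positions describe 3 arrays a group and were not tested.

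Some bright genes with large differences did not pass. tts-1, a noncoding RNA, chosen with the genes that follow after its values were seen, read 1890.1, 1322 and 395 in aex-3 SUMO and 215, 127 and 398 in myo-4 SUMO (-2.16 ± 0.55, adjusted p = 0.158). aex-3 SUMO replicate 3 was as low as the highest myo-4 SUMO array. The same array was the lowest of its line for the metallothionein gene mtl-1, at 118, 118 and 42.0 against 37.4, 22.2 and 32.6 (-1.43 ± 0.36, adjusted p = 0.158). It was also the lowest for T12D8.5, at 189.6, 176 and 59.5 against 38.7, 35.1 and 34 (-1.77 ± 0.36, adjusted p = 0.0865). In the other direction the collagen gene col-41 read 26.5 ± 14.7 and 93.4 ± 14.3 (1.92 ± 0.38, adjusted p = 0.0766).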

How the data were processed

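The authors deposited 1 linear signal intensity for each probe set of an Affymetrix C. elegans array. The submitters' processing notes name GCOS, without a version. Each array was prepared from 10 µg of total RNA, per the labels' protocols. The 2% trimmed mean was 100.03 to 100.04 on every array, so values were used as deposited, with a precision set by how many arrays there are.

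Of 22625 probe sets, 77 were controls and did not enter the fit. The log2 of signal + 1.569 was used, the pseudocount being the median of the arrays' 10th percentiles, and the 6 arrays were fitted with limma 3.58.1 in R 4.3.3 (lmFit, eBayes with an intensity trend, 4 residual and 5.26 prior degrees of freedom), two-sided, with no filter. Alternatives varied the scaling, filter, pseudocount, moderation, replicate block and arrays used. P-values measure the spread of 3 populations per line. Same-numbered replicates were not treated as pairs: their deviations correlated at -0.0509, 0.0162 and -0.1. In simulated data for this comparison (22548 probe sets), 56.7% of 67 changes of 1.5-fold, 83.6% of 67 of 2-fold and 95.5% of 66 of 4-fold were recovered, and 9 unchanged probe sets were called. The simulated noise was independent and normal, with variances drawn from the model fitted to these data, and the changes were placed in bright probe sets only. These shares therefore hold under that model and do not give the sensitivity in the real data. Recovery was not split by signal level, and that for dim probe sets was not tested.

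Probe sets were named through the platform's gene identifiers and a gene table of assembly WBcel235, used for names, chromosomes and gene order only: 20766 had 1 gene, 887 several and 895 none. A list uses the brightest probe set per gene. The comparison, the lists and the named genes were chosen with earlier results of these data known. Named genes are the 12 highest and 12 lowest called single-gene changes (groups apart, brighter line above the 40th percentile), SUMO, promoter, marker and yolk genes, the smallest p-values of each list, members of symbol classes with the highest shares called, and runs of called neighbours. ubc-9, uba-2 and mms-21 were not analysed here.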

Additional observations from a re-analysis of the deposited data

Results flagged for a closer look

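Among the called probe sets and those of the named genes, 8 had the 3 arrays of one line wholly above N2 and the 3 arrays of the other wholly below it. The difference between the lines was tested with limma and the position against N2 was not. Higher in myo-4 SUMO were R01E6.5 (log2 fold change 1.75), mtre-1 (1.45), clec-174 (1.26) and C25G4.7 (1.18), together with the dim probe sets of sel-7 (1.82) and srh-192 (1.62). A second sel-7 probe set was not called (0.41 ± 0.29). The chemoreceptor gene srh-192 missed the threshold (adjusted p = 0.061). Lower in myo-4 SUMO were M28.10 (-0.67) and hint-3 (-0.45). M28.10 read 112, 106 and 104 in aex-3 SUMO, 94.8, 88.8 and 88.7 in N2 and 66.9, 66.3 and 66.7 in myo-4 SUMO.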

How the results depend on the processing

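The sign of all 100 calls held under every one of the 16 alternatives that tested them. Only quantile normalization and median centring could have turned it, since the lines did not overlap on any called probe set. The calls themselves held under all alternatives that tested them for 8, and the filters tested 94 and 84 of the 100. Against 100 calls (61 higher and 39 lower in myo-4 SUMO), 245 (145 and 100) were made above the 40th percentile, 243 (138 and 105) above the 60th, 63 (36 and 27) with a pseudocount of 16, 26 (18 and 8) with none and a floor of 1, 23 (18 and 5) with all 9 arrays in the fit, and 21 (15 and 6) without the intensity trend. Quantile normalization gave 38 higher and 40 lower, median centring 43 and 67, and robust moderation 58 and 45. Taking the replicate number as a block gave 64 calls (45 and 19). Leaving out 1 array gave 17 to 74 calls, 12 to 43 of them higher and 5 to 31 lower. The filters test fewer probe sets and fit the intensity trend anew on them, and leaving out arrays uses fewer samples. The cause of the change in calls was not tested for any setting.

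Genes of any list called numbered 32, and 71 and 76 under the filters, 16 with a pseudocount of 16, 5 with none, 5 with all 9 arrays, 3 without the trend, 19 with the replicate block and 5 to 23 without 1 array. The fold change of aex-3, 0.038 and never called, turned to -0.052 after quantile normalization and -0.0296 after median centring, and ranged from -0.057 to 0.20 on leaving out 1 array. Signals near the floor of the array limit what can be said of dim genes, whose fold changes depend on the pseudocount.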
